A study of Mus musculus with 4 samples.

Results

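The proteoglycans and noncollagenous proteins of cartilage were followed here in 10 genes: Acan, Hapln1, Comp, Matn1, Matn3, Prg4, Cilp, Cnmd, Snorc and Ucma. They were found on the array by the RefSeq transcript that each probe reads, with no use of the measured values, which gave 11 probes (2 for Prg4, 1 for each other gene) among 55619 probes and 37042 genes or unnamed transcripts. Of the 10 genes, 9 had a signal well above background. The probe of Cilp was not well above background on any array.

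The cells were primary chondrocytes of 6-day-old C57BL/6J mice, cultured for 3 days with 10 ng per ml TNF, an inflammatory cytokine, or without it. One genotype was Rela fl/fl, with both Rela alleles floxed and no Cre. The other, named cKO, carried the same floxed alleles and Prrx1-Cre, in which the Prrx1 promoter drives Cre recombinase in limb bud mesenchyme. Rela is the p65 subunit of the transcription factor NF-κB, through which TNF signals. RNA of each combination of genotype and treatment was hybridised to 1 array. There were no replicates, and no test between conditions was run. Whether cells of several mice were pooled is not given in the sources used here.

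Aggrecan is a large proteoglycan whose negatively charged chains draw water into cartilage, and link protein fastens it to hyaluronan. Matrilins and cartilage oligomeric matrix protein bridge these aggregates and the collagen fibrils. Chondrocytes make these proteins under the control of Sox9, and inflammatory cytokines are known to lower aggrecan synthesis and to induce the enzymes that break it down.

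On the cKO-labelled array without TNF, 8 of the 9 measured genes had a lower signal than on the Rela fl/fl array, and with TNF all 9 did. For Prg4 this holds for the brighter of its 2 probes, and the other, near background, was higher with TNF by 0.23. The median log2 differences over all genes tested were 0.01 without TNF and 0.06 with it. Matn1 differed most, 3.61-fold lower without TNF and 2.27-fold lower with it, followed by Snorc (2.51-fold lower without TNF). Ucma, Cnmd and Acan were lower by smaller amounts in both pairs of arrays, and without TNF the differences of Hapln1 and Comp were the smallest of the 8. In Rela fl/fl cells 8 of the 9 genes were lower with TNF, by at most 0.43 on the log2 scale, and Prg4 was higher by 0.93 on the brighter of its 2 probes. The median over all genes tested was 0.01. On the cKO-labelled arrays 6 of the 9 were higher with TNF. Their median difference was 0.05, beside 0.06 over all genes tested, so most genes tested lay above 0 there as well. For Matn3 and Cnmd the sign of the TNF difference on the cKO-labelled arrays turned without scaling of the arrays.

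Each signal below is relative to the 75th percentile of its own array, which was set to 1, and each difference is a log2 difference between 2 arrays. Levels are comparable between arrays for 1 probe, not between probes. Probes printed 10 times on each array and brighter than its 75th percentile gave a standard deviation of 0.09 for a difference between 2 arrays, so 0.17 is called 2 technical spreads. Over all such probes well above background, dim ones included, 2 spreads were 0.28. This is the error of the spots alone and holds neither the spread between mice nor that between cultures. The scanner's software gave bright spots a relative error of about 10.0%, by which 2 errors of a difference are 0.41. In cultured cells measured in bulk, fewer cells of a type and less RNA per cell cannot be told apart.

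The 4 arrays lay on 1 slide, between 50.9% and 58.1% of probes were well above background, and no spot was saturated. Bright patches covered 1.04% to 10.7% of the spots of an array. Of the probes used here, the Acan spot of the cKO-labelled array with TNF and both Prg4 spots of the cKO-labelled array without TNF lay in one. The Rela probe had signals of 28.3 and 34.7 on the untreated and TNF-treated Rela fl/fl arrays and of 33.9 and 40.2 on the cKO-labelled arrays, so it did not show the deletion, and where the probe lies relative to the floxed exons was not known. Xist exceeded background on the Rela fl/fl arrays alone. Ddx3y and Eif2s3y, both Y-linked, did so on every array. In Rela fl/fl cultures, without and with TNF, Ddx3y had signals of 1.30 and 1.30 and Eif2s3y of 1.77 and 1.84. Xist and Y-linked transcripts were thus found together in those cultures. Ddx3y and Eif2s3y were higher on the cKO-labelled arrays by 1.49 and 1.81 without TNF and by 1.71 and 1.83 with it. Genotype and sex of the cells therefore cannot be told apart here. All 8 chondrocyte markers, Acan and Hapln1 among them, were well above background on every array. Between the genotypes 7 of the 8 were below 0 without TNF (median -0.31) and 6 with it (median -0.12).

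The 250 bases before the annotated start of 3 of the genes are printed because Rela-containing dimers bind κB motifs and because Matn1 differed most between the genotypes. The sequences are from RefSeq (GRCm38.p6), 5′ to 3′ on the strand of the gene, for Acan (chr7:79052976-79053225, plus strand), Matn3 (chr12:8947679-8947928, plus strand) and Matn1 (chr4:130944135-130944384, plus strand). Capitals mark the matches to the 10-base κB motif.
Acan: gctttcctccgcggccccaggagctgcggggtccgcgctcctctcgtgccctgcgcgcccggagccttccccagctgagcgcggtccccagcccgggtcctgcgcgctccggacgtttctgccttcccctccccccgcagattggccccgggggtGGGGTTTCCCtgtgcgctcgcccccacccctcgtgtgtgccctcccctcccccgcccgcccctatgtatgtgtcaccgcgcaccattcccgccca
Matn3: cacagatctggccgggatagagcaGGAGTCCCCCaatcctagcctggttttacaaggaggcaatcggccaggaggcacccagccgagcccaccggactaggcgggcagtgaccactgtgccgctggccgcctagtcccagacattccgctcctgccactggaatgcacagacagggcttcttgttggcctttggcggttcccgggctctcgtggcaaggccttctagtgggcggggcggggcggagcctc
Matn1: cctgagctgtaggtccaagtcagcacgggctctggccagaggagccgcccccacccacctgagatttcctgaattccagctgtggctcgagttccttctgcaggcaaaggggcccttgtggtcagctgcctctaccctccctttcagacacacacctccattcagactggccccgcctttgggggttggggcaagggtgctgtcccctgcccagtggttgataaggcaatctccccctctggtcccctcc
The Acan match lay 95 to 86 bases before the start and read as a κB motif on both strands. The Matn3 match lay 226 to 217 bases before the start, with the motif on the minus strand. Among the 7 genes with an entry in the RefSeq table (Acan, Hapln1, Matn1, Matn3, Cilp, Cnmd and Ucma), these 2 held a match, and 7.25% of all 32851 windows of that length did. The 5-base Sox motif ACAAT, searched on both strands, was found in the window of Hapln1 alone among the 7, against 27.7% of all windows. A match describes the letters only.

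Acan encodes the aggrecan core protein. In Rela fl/fl cells its signal was 99.9 without TNF and 81.5 with it, against 65.9 and 58.8 on the cKO-labelled arrays. Both cKO-labelled arrays were lower than both Rela fl/fl arrays. The log2 difference between genotypes was -0.60 without TNF and -0.47 with it. With TNF the signal was lower by 0.29 in Rela fl/fl cells, a difference above 2 technical spreads but within 2 of the software's errors, and by 0.16 on the cKO-labelled arrays, within both. The latter passed 2 technical spreads under other scalings of the arrays, at -0.27 without scaling and -0.35 with quantile normalization. The differences that use the cKO-labelled array with TNF rest on the spot in a patch.

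Hapln1 encodes link protein, which ties aggrecan to hyaluronan. Its signals were 25.6 and 19.1 on the untreated and TNF-treated Rela fl/fl arrays and 20.8 and 18.6 on the cKO-labelled arrays. The untreated Rela fl/fl array stood above the other 3. With TNF the Rela fl/fl signal was lower by 0.43, past 2 of either error, though within 2 of the software's errors after normexp background correction (-0.31), whereas the difference between genotypes was -0.31 without TNF and -0.04 with it.

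Matn1 encodes matrilin 1, which binds both aggrecan and collagen fibrils. Its signals were 89.9 and 73.4 on the untreated and TNF-treated Rela fl/fl arrays, and 24.9 and 32.3 on the cKO-labelled arrays. Both cKO-labelled arrays lay far below the Rela fl/fl arrays, with log2 differences of -1.85 without TNF and -1.18 with it. TNF went with a lower signal in Rela fl/fl cells (-0.29) and a higher one on the cKO-labelled arrays (0.38).

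Matn3, a matrilin of the growth plate, had signals of 5.40 and 4.38 on the Rela fl/fl arrays and 3.77 and 3.90 on the cKO-labelled arrays. The difference between genotypes was -0.52 without TNF. With TNF it was -0.17, which did not reach 2 technical spreads. Its TNF difference was -0.30 in Rela fl/fl cultures and 0.05 on the cKO-labelled arrays, the latter turning negative without scaling.

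Comp encodes cartilage oligomeric matrix protein, which binds collagens and catalyses fibril assembly. Its signals were 458 and 454 on the Rela fl/fl arrays and 384 and 372 on the cKO-labelled arrays. The log2 differences between genotypes were -0.26 and -0.29, past 2 technical spreads but within 2 of the software's errors. Its TNF differences were -0.02 and -0.04, the second of which was -0.15 without scaling. Its spots were at 28.2% to 36.2% of the saturating intensity.

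Snorc encodes a small transmembrane proteoglycan of chondrocytes. Its signals were 60.0 and 46.8 on the untreated and TNF-treated Rela fl/fl arrays and 23.9 and 29.2 on the cKO-labelled arrays. Both cKO-labelled arrays were below both Rela fl/fl arrays, by 1.33 without TNF and 0.68 with it on the log2 scale. As for Matn1, TNF went with a lower signal in Rela fl/fl cells (-0.36) and a higher one on the cKO-labelled arrays (0.29).

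Ucma encodes a secreted, vitamin K-dependent protein of resting chondrocytes. Its signals were 301 and 283 on the Rela fl/fl arrays and 162 and 193 on the cKO-labelled arrays. The differences between genotypes were -0.90 without TNF and -0.55 with it. The difference with TNF was -0.09 in Rela fl/fl cultures and 0.26 on the cKO-labelled arrays. The second was within 2 technical spreads without scaling (0.15) and with quantile normalization (0.086).

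Cnmd encodes chondromodulin, a membrane glycoprotein whose shed part inhibits vessel growth. Its signals were 110 and 101 on the Rela fl/fl arrays and 62.8 and 65.2 on the cKO-labelled arrays. The genotypes differed by -0.81 without TNF and -0.63 with it. TNF went with differences of -0.13 and 0.05, neither of which reached 2 technical spreads. With quantile normalization the first did (-0.18), and the second turned negative without scaling.

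Prg4 encodes lubricin, the lubricant of the cartilage surface and the synovial lining, and had a pattern of its own among the 9 genes. The brighter of its 2 probes gave 5.61 and 10.7 on the untreated and TNF-treated Rela fl/fl arrays and 6.16 and 7.40 on the cKO-labelled arrays. The Rela fl/fl array with TNF was the highest, and its difference to the array without TNF, 0.93, was larger than that of 10715 of the 10738 genes whose signal was above the 75th percentile on all 4 arrays (called bright genes below). On the cKO-labelled arrays the difference with TNF was 0.26, and the genotypes differed by 0.13 without TNF and by -0.53 with it. With the mean over both probes, the TNF difference in Rela fl/fl cultures was 0.13, and the genotypes differed by -0.41 without TNF and by -0.15 with it. The second probe, which reads the same transcript, lay near background with signals of 0.074, 0.047 and 0.055 on the 3 arrays where it was well above it. It went the other way with TNF in Rela fl/fl cells (-0.66), so the 2 probes of Prg4 disagree. Every value that uses the cKO-labelled array without TNF rests on spots in a patch.

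Cilp encodes cartilage intermediate layer protein, found in the middle zone of articular cartilage, and gives no value because its probe was not well above background on any array.

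**Figure D1:**
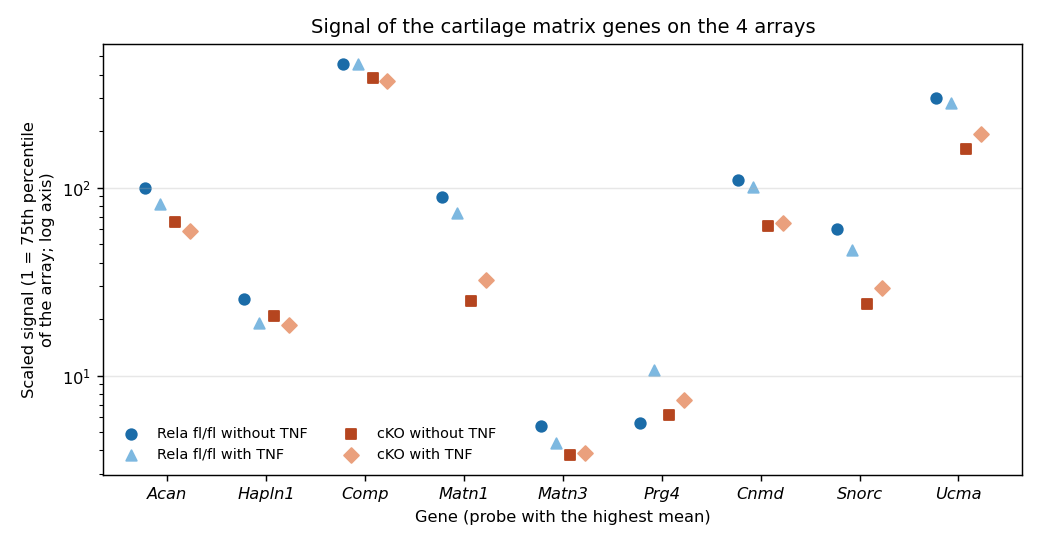
Scaled signal (log axis, 1 is the 75th percentile of the array) of the 9 genes measured on the 4 arrays, with 1 point per array. In Matn1, Matn3, Snorc, Ucma, Cnmd, Acan and Comp both cKO-labelled arrays lie below both Rela fl/fl arrays, and heights are not comparable between genes.

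The genotypes were first compared without TNF. Of the 9 genes, 2 (Matn1 and Snorc) were lower by a log2 difference of at least 1 and 0 were higher, while 4.38% of 24277 genes tested were lower and 3.53% were higher by that limit. By 2 technical spreads, 8 were lower and 0 higher, against 12.8% and 13.2% of 10738 bright genes. Prg4 was the gene not lower. Without scaling it passed this limit as higher (0.18), and with the mean over its probes it passed as lower (-0.41). The median difference of the 9 genes was -0.60, beside 0.01 over all genes tested and -0.01 over the bright genes. By 2 of the software's errors 6 genes were lower (Acan, Matn1, Matn3, Cnmd, Snorc and Ucma) and 0 higher, against 2.84% and 3.15% of the bright genes. At limits of 1.5-fold and 3-fold, 5 genes and 1 gene were lower, against 6.44% and 3.21% of all genes tested.

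Among the bright genes, 0 had a lower difference than Matn1 without TNF and 1 had a lower one than Snorc. For Ucma 34 genes lay lower, for Cnmd 51 and for Acan 111. Matn3 (179), Hapln1 (532) and Comp (724) stood closer to the middle of the distribution, whose 5th and 95th percentiles were -0.30 and 0.32.

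The comparison with TNF uses the other pair of arrays and shares none with the first. Here 1 of the 9 genes (Matn1) was lower by a log2 difference of 1 and 0 were higher, while 3.19% of 24513 genes tested were lower and 1.17% were higher. By 2 technical spreads 7 were lower and 0 higher, against 9.59% and 23.9% of bright genes. Matn3 and Hapln1 were the genes within 2 spreads, and Matn3 passed as well without scaling (-0.24) and with quantile normalization (-0.19). Without scaling, 1723 bright genes were lower and 1452 higher. By 2 of the software's errors, 6 were lower (Acan, Matn1, Prg4, Cnmd, Snorc and Ucma) and 0 higher, against 2.41% and 3.9% of the bright genes. With the mean over its probes, Prg4 was at -0.15, within 2 technical spreads and within 2 of the software's errors. At limits of 1.5-fold and 3-fold, 3 and 0 genes were lower, against 5.68% and 2.1% of all genes tested. The median difference was -0.53, beside 0.06 over all genes tested and 0.07 over bright genes. Matn1 again stood near the low end, with 7 bright genes lower, followed by Snorc (70), Cnmd (90), Ucma (125), Prg4 (133) and Acan (184).

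**Figure D2:**
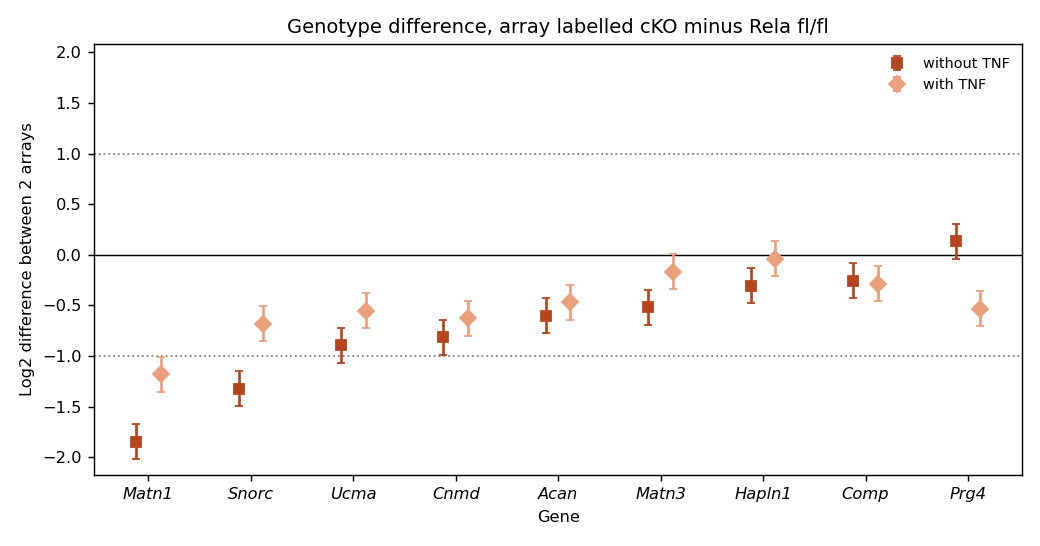
Log2 difference between the cKO-labelled array and the Rela fl/fl array for each gene, without and with TNF, with error bars of 2 technical spreads and dotted lines at a difference of 1 in size. Matn1 lies at -1.85 without TNF and -1.18 with it, and Prg4 without TNF is the 1 point above 0, at 0.13.

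**Figure D3:**
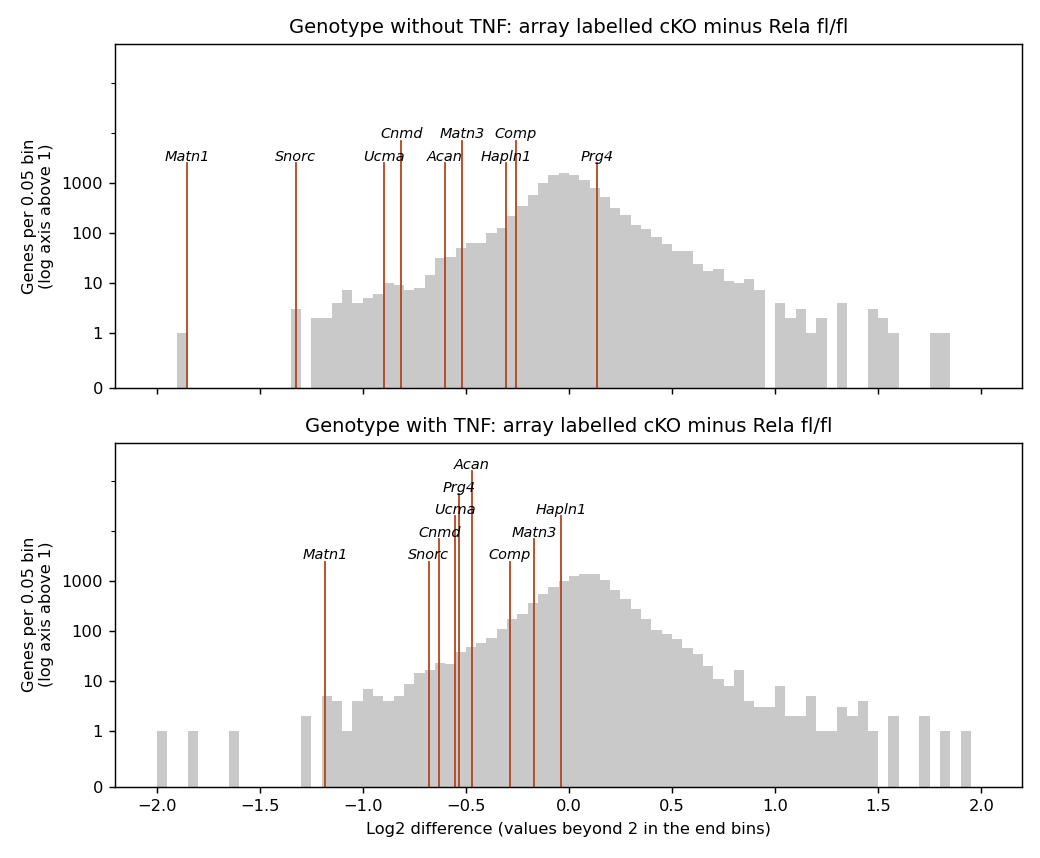
Number of bright genes per 0.05 bin of the log2 difference between genotypes (log axis above 1), without TNF in the upper and with TNF in the lower panel, with lines at the values of the 9 genes. Matn1 and Snorc sit at the lower end without TNF, and Hapln1 lies near the centre with TNF.

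TNF was compared next within each genotype, on the same 4 arrays, so each of these comparisons shares an array with each comparison of the genotypes. In Rela fl/fl cells 0 of the 9 genes passed a log2 difference of 1 in either direction, while 4.26% of 23408 genes tested were lower and 2.39% higher. By 2 technical spreads 5 were lower (Acan, Hapln1, Matn1, Matn3 and Snorc) and 1 was higher (Prg4), against 6.33% and 12.7% of bright genes. With the mean over its probes, Prg4 did not pass (0.13). The median of the 9 genes was -0.29, beside 0.01 over all genes tested. Of these, Hapln1 (lower) and Prg4 (higher) also passed 2 of the software's errors, as did 0.894% and 3.13% of bright genes in those directions. Prg4 was the 1 gene past a limit of 1.5-fold, upward, as were 4.37% of all genes tested.

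On the cKO-labelled arrays, 0 of the 9 passed a log2 difference of 1, while 4.44% of 24903 genes tested were lower and 1.04% higher. By 2 technical spreads 0 were lower and 4 were higher (Matn1, Prg4, Snorc and Ucma), against 5.89% and 29.2% of bright genes. These counts depend on the scaling. Without it, 2 of the 9 were lower (Acan and Hapln1) and 2 higher (Matn1 and Snorc), and 1405 bright genes were lower and 956 higher. With quantile normalization, 2 were lower and 1 (Matn1) was higher. By 2 of the software's errors 0 passed in either direction, against 1.58% of bright genes lower and 2.3% higher. The median of the 9 genes, 0.05, was next to that of all genes tested, 0.06. Without scaling the median of all genes was shifted by -0.10. Relative to the median of all genes, Matn1 was at 0.32, Snorc at 0.23 and Ucma at 0.20, Matn3 and Cnmd were at -0.01, and Acan and Hapln1 were at -0.22.

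The TNF difference on the cKO-labelled arrays minus that in Rela fl/fl cells was above 0 in 7 of the 9 genes, with a median of 0.27 beside 0.08 over bright genes. It was 0.67 in Matn1, 0.65 in Snorc, 0.35 in Matn3, 0.34 in Ucma and 0.27 in Hapln1, all past the 0.24 that is 2 technical spreads of this quantity, as in 14.8% of bright genes. Without scaling Matn1 and Snorc alone stayed past it, with Hapln1 at 0.15 and Matn3 and Ucma at 0.23. In Prg4 it was -0.67, and 6.81% of bright genes passed in that direction. With the mean over its probes it was 0.26, of the opposite sign, and both values use a spot in a patch on the cKO-labelled array without TNF. Acan (0.13), Cnmd (0.18) and Comp (-0.03) lay within it. With 1 array per condition, whether TNF acted differently in the 2 genotypes was not tested.

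**Figure D4:**
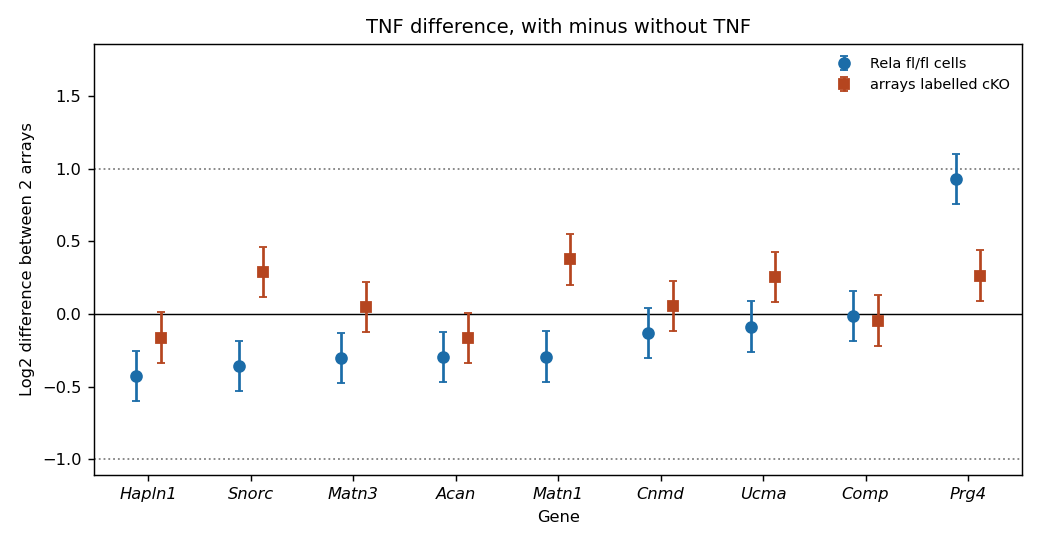
Log2 difference between the arrays with and without TNF for each gene, for Rela fl/fl cells and for the cKO-labelled arrays, with error bars of 2 technical spreads and dotted lines at a difference of 1 in size. Prg4 is at 0.93 in Rela fl/fl cells, and the points of Matn1 and Snorc lie below 0 in Rela fl/fl cultures and above 0 in the other genotype.

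Other matrix genes of cartilage were set beside these. Of 24 such genes, 23 were on the array and 22 were tested. Without TNF, 4 were lower by a log2 difference of 1 and 0 higher on the cKO-labelled array, with a median of -0.50 (2 of the 4, Mia and Col9a2, outside patches), and with TNF 0 passed that limit in either direction, with a median of -0.36. Mia, a secreted protein of chondrocytes, had signals of 102 and 84.1 on the Rela fl/fl arrays and 41.1 and 46.8 on the cKO-labelled arrays. Its differences between genotypes, -1.31 and -0.84, were near those of Snorc. The chains of collagen IX were lower too, with Col9a2 at -1.06 and, with a spot in a patch, -0.66, and Col9a3 at -0.92 and -0.40. Col9a1 was at -0.86, with a spot in a patch, and -0.47, and its dimmer probe, outside patches, at -1.23 and -1.12. Chadl was at -1.06, with a spot in a patch, and -0.98. In contrast, Col2a1, the main collagen of cartilage, had differences of -0.03 and 0.00. Its signals, 582 to 607, were above those of every other gene named here. Whether differences are compressed at that level was not tested. TNF gave 0 calls in this list on the cKO-labelled arrays and 1 lower gene in Rela fl/fl cells, from a spot in a patch.

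Of 14 relatives in the same gene families, 2 of the 12 tested were lower by a log2 difference of 1 without TNF and 3 of 13 with it, and 0 were higher, 1 and 2 of these outside patches. The median differences were -0.10 and 0.08, and outside patches -0.02 and -0.07, so that with TNF the sign turned. Matn4, another matrilin, had signals of 6.74 and 5.71 on the Rela fl/fl arrays and 2.85 and 2.69 on the cKO-labelled arrays, differences of -1.24 and -1.08. Its other probe, with a spot in a patch on the untreated Rela fl/fl array, gave -1.30 and -0.93. Matn2, the matrilin found widely outside cartilage, differed by 0.09 and 0.11, with spots in patches on both arrays without TNF. Vcan, the versican of less differentiated mesenchyme, had signals of 1.34 and 1.90 on the Rela fl/fl arrays and 1.07 and 0.769 on the cKO-labelled arrays, a difference of -1.31 with TNF. A second Vcan probe well above background on all 4 arrays gave -0.59. For TNF, 1 relative was higher and 2 were lower in Rela fl/fl cells, all 3 from spots in patches, and 0 passed on the cKO-labelled arrays.

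Among the 17 genes of matrix turnover, Mmp3, the protease stromelysin, had signals of 0.612 and 15.2 on the untreated and TNF-treated Rela fl/fl arrays, and 0.249 and 1.47 on the cKO-labelled arrays. TNF thus went with a difference of 4.64 in Rela fl/fl cultures and of 2.56 on the cKO-labelled arrays. Mmp13, a collagenase, was at 6.05 and 12.9 in Rela fl/fl cultures and at 12.4 and 11.5 on the cKO-labelled arrays. Adamts5, an aggrecanase, had TNF differences of -0.07 and -0.56. Its second probe gave 0.34, with a spot in a patch, and -0.36. Over the list, with TNF 2 of 15 tested were higher in Rela fl/fl cultures and 1 of 16 on the cKO-labelled arrays, and 0 were lower. Between genotypes, 1 was higher and 1 lower of 16 without TNF, and 0 and 1 of 15 with it.

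Of 10 regulators of chondrocytes, 0 were higher by a log2 difference of 1 and 2 lower without TNF, and 0 passed with TNF, between the genotypes. For TNF, 2 were lower in Rela fl/fl cultures and 0 passed on the cKO-labelled arrays. Sox9, which drives many of the matrix genes, differed by -0.15 and -0.12 between the genotypes, each with 1 spot in a patch, and Sox5 by 0.30 and 0.05. Both calls without TNF, and both in Rela fl/fl cells, rested on spots in patches. For Foxa2, 1 of these genes, a second probe outside patches gave -1.19 between the genotypes without TNF and -0.88 for TNF in Rela fl/fl cells.

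Genes known to respond to TNF through NF-κB were higher by a log2 difference of 1 in 9 of 13 in Rela fl/fl cells (median 1.51) and in 4 of 12 on the cKO-labelled arrays (median 0.62). With TNF, 7 of 13 were lower on the cKO-labelled array, with a median of -1.34, and without TNF 0 of 11 passed in either direction.

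**Figure D5:**
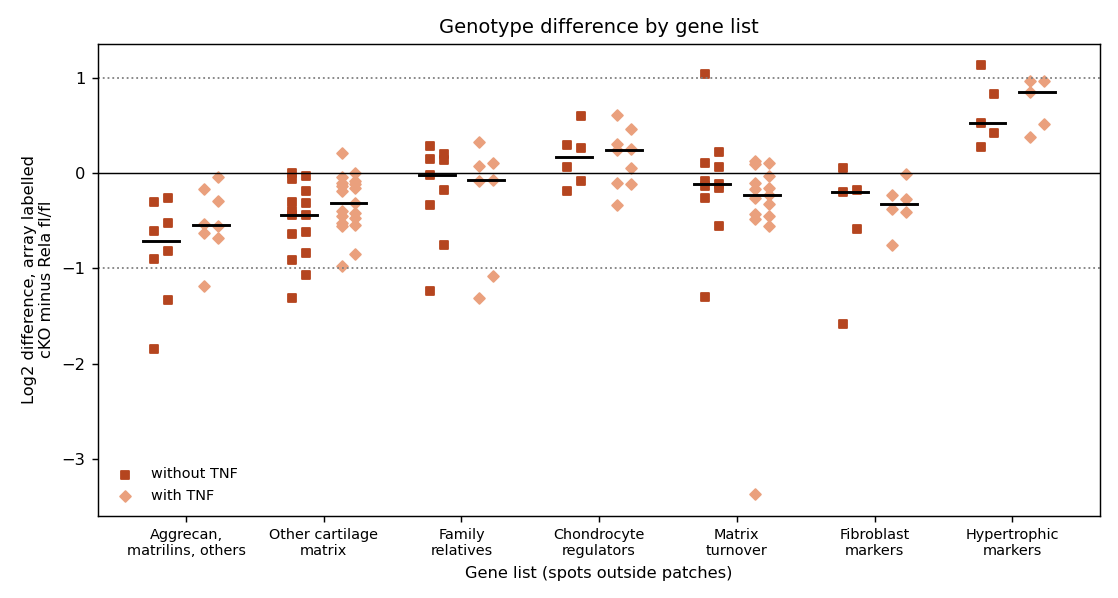
Log2 difference between genotypes, cKO-labelled array minus Rela fl/fl, of each gene in the 7 lists named on the axis, without and with TNF, for spots outside patches, with 1 point per gene, black lines at the medians and dotted lines at a difference of 1 in size. The other cartilage matrix genes lie mostly below 0, all 5 hypertrophic markers lie above 0, and Mmp3, of the turnover genes, is the lowest point plotted, at -3.37. The TNF response genes are not plotted.

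Markers of other cell states moved with the genotype as well, and their part in these differences was not tested. All 5 markers of hypertrophic chondrocytes, the mature cells that mineralise, were higher on the cKO-labelled arrays, with medians of 0.53 without TNF and 0.85 with it. Their summed signals were 37.2 and 53.4 on the Rela fl/fl arrays and 54.1 and 76.7 on the cKO-labelled arrays. The higher sums with TNF came from Spp1, at 24.0 and 42.1 on the Rela fl/fl arrays and 29.1 and 54.7 on the cKO-labelled arrays. The other 4 markers were lower with TNF in both genotypes, and the median TNF differences were -0.25 and -0.22. Col10a1, the hypertrophic collagen, had signals of 8.19 and 7.23 on the Rela fl/fl arrays and 14.6 and 14.1 on the cKO-labelled arrays.

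Of 7 fibroblast markers, 6 were lower without TNF and 7 with it on the cKO-labelled arrays, with medians of -0.23 and -0.37. Thy1 differed by -1.59 and -0.27, and Dpt, with spots in patches, by -1.62 and -1.16. A list's summed signal is carried by its brightest probes, here the collagens, and the 7 markers summed to 637 and 651 on the Rela fl/fl arrays and to 587 and 569 on the cKO-labelled arrays. The 4 markers of synovial lining or superficial zone, Prg4 among them, summed to 5.97 to 11.0, and the 3 tendon markers to 11.1 to 17.5. The 8 chondrocyte markers summed to 876 to 1018.

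Of the defining markers of other lineages, Ptprc of leukocytes, Cdh5 and Tek of endothelium, Myog and Ckm of skeletal muscle and Dmp1 of osteocytes were not well above background on any array. Other markers of these lists were. Of 5 leukocyte markers measured, 4 were well above background on every array (Csf1r, Adgre1, Cd14 and Lyz2), as were Pecam1 of endothelium and Acta1 of muscle. Adgre1 was dim, at 0.079 and 0.073 on the Rela fl/fl arrays and 0.052 on the TNF-treated cKO-labelled array. Its 0.577 on the untreated cKO-labelled array came from a spot in a patch, and its second probe was never well above background. Lyz2 differed between the genotypes by -2.11, with a spot in a patch, and by -0.94 with TNF. Acta1 was higher on the cKO-labelled arrays by 0.55 and 0.54. Sp7 of osteoblasts, well above background on all but the TNF-treated Rela fl/fl array, was higher by 0.70 without TNF and by at least 1.81 with it. The leukocyte list summed to 3.77 to 4.23, the endothelial list, nearly all from 1 Kdr probe, to 17.7 to 20.7, the skeletal muscle list to 1.81 to 2.76 and the osteoblast list, which includes Col1a1, to 162 to 167. A second Kdr probe was not well above background on any array. The 3 adipocyte markers summed to 2.78 to 3.77, mostly from Fabp4. On the cKO-labelled array without TNF, 2 of the 3 were lower by a log2 difference of 1, both as bounds (median -1.27). With TNF 1 was, from a spot in a patch (median -0.62). Of all genes tested, 4.38% and 3.19% were lower by that limit. Adipoq among them exceeded background in both Rela fl/fl cultures and not on the untreated cKO-labelled array.

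Genes with the pattern most like that of Acan were sought among 9662 genes with a symbol, well above background on all 4 arrays and outside patches there. The measure was the largest gap to Acan over the 3 log2 differences from the untreated Rela fl/fl array. The nearest were Adhfe1 (gap 0.045), Dcaf12l1 (0.077), Ecm2 (0.083), Aldh6a1 (0.083) and Avil (0.084). Within the group of 10 genes itself Cnmd came nearest, at rank 70 with a gap of 0.21, then Matn3 (159), Ucma (161) and Hapln1 (165). The likeness rests on 4 arrays, on 1 of which the Acan spot lay in a patch.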

How the data were processed

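Total RNA of 4 cultures, 1 per group, was labelled with Cy3 and hybridised to Agilent mouse arrays. The authors deposited, per the file headers, the processed signal intensity of each spot from Feature Extraction 10.10.1.1, with background subtracted and spatial trends removed, together with flags for outliers and for spots well above background. The authors also deposited a value table, whose intensity values were the processed intensity times 1.77 to 1.83, 1 factor per array, and the basis of the factor is not given in the sources used here.

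From the deposited intensity, the log2 value minus the 75th percentile of transcript spots of its array was computed. Outlier spots were left out, repeat spots averaged, and a gene with several probes was represented by the brightest on average. Symbols came from RefSeq (GRCm38.p6) by accession, for 27235 of 55681 probes. The array files name mm9, so no gene coordinates were taken from that table beyond those of its own promoter windows.

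A gene was tested when 1 or both arrays of the comparison were well above background. Where the other was not, its signal was raised to the lowest signal on its array that was, and the difference is then a bound. A difference of 1 on the log2 scale was the limit, and as a second rule 2 technical spreads, among genes above the 75th percentile on all 4 arrays. The number of arrays limits the precision. With 1 array per group no p-value was computed, and no additive model of genotype and TNF was run. The rule was tested on simulated data. That simulation held differences larger than the limit, in bright spots only. It therefore does not speak to smaller differences, to dim spots or to the rule of 2 technical spreads. A spot lay in a patch when 3 or more spots within 5 rows and 2 columns of it were brighter by 2-fold or more than the same spot of every other array. Log2 values under -4.5 were raised to it for this step.

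The genes, the lists (family relatives, other cartilage matrix, matrix turnover, regulators, TNF response and cell type markers) and the patch rule were chosen with earlier results of these data known. Named beside the 10 genes were relatives and turnover genes past the limit outside patches, defining markers, the 5 genes most like Acan, and Rela, Xist, Ddx3y and Eif2s3y. The other genes named from the lists (Matn2, Adamts5, Sox9, Sox5, Mia, Col9a1, Col9a2, Col9a3, Chadl, Barx2, Foxa2, Spp1, Fabp4, Acta1, Csf1r, Adgre1, Cd14, Lyz2, Pecam1) were chosen after their values were seen. Alternatives were no scaling, quantile normalization, the authors' table, normexp (offset 50, on the median spot signal and local background), other filters on dim probes, probe summaries, limits and patch rules. Python 3.11.15 with numpy 2.4.6, pandas 2.3.3 and matplotlib 3.10.9, and R 4.3.3 with limma 3.58.1 were used.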

Additional observations from a re-analysis of the deposited data

Results flagged for a closer look

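Some genes had TNF differences of opposite sign in the 2 genotypes, each past the 0.173 that is 2 technical spreads of bright spots. Matn1 was at -0.29 in Rela fl/fl cultures and 0.38 on the cKO-labelled arrays, and Snorc at -0.36 and 0.29. Mia (-0.28 and 0.19) and Col9a3 (-0.23 and 0.29) had the same signs. On the cKO-labelled arrays Mia did not pass without scaling (0.083), with quantile normalization (0.056), with normexp (0.171) or in the authors' value table (0.076), and Snorc did not with quantile normalization (0.15). Vcan ran the other way, at 0.51 and -0.47, with a second probe at 0.16 and -0.27, of which the first does not pass. Thy1, a fibroblast marker, was at -0.69 and 0.63. Between genotypes, Adamts5 was at 0.22 without TNF and -0.26 with it, and Barx2, a transcription factor, at -0.18 and 0.24. Barx2 without TNF did not pass 0.173 without scaling (-0.137) or in the authors' value table (-0.169). Neither gene is above the 75th percentile on all arrays, and on these probes none of the 4 values passes the 0.28 that is 2 spreads when dim spots are included. A second Adamts5 probe gave 0.37 and -0.32, both past it, the latter with a spot in a patch on the TNF-treated Rela fl/fl array. With 1 array per condition none of these differences was tested.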

How the results depend on the processing

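The differences of the 9 genes in the 4 comparisons were computed again under the alternatives, which gave 318 values. Of these, 283 moved by less than the technical spread, 34 moved further, and 1 reversed: Prg4 between genotypes without TNF, which went from 0.13 to -0.41 with the mean over its 2 probes. This was the 1 change of sign among the 159 recomputed values between genotypes. The same mean gave Prg4 a TNF difference of 0.13 in Rela fl/fl cells. A limit of 1.5-fold called 1 gene for TNF in Rela fl/fl cells, as higher, and 5 between genotypes without TNF and 3 with it, as lower. In those directions 4.37%, 6.44% and 5.68% of all genes tested passed. A limit of 3-fold called 1 and 0 as lower between genotypes without and with TNF, against 3.21% and 2.1% of all genes tested. The median TNF difference on the cKO-labelled arrays became -0.051 without scaling, -0.038 with quantile normalization and -0.059 in the authors' table, where Matn3 and Cnmd also fell below 0. With spots in patches left out, the median difference between genotypes without TNF was -0.71 over 8 genes, under either patch rule. Prg4 then had no value on the untreated cKO-labelled array under either rule, and Acan had none on the treated one under the rule of 3 neighbours alone, keeping its values with 6 neighbours. The share of higher genes among those past the limit for TNF on the cKO-labelled arrays went from 18.9% to 29.6% with quantile normalization, and to between 10.8% and 12.3% without scaling, in the table and with normexp. Among bright genes past 2 spreads, it went from 83.2% to 40.5% without scaling, 46.0% with quantile normalization and 36.8% in the table. In Rela fl/fl cells it went from 66.7% to 49.9% (quantile) and 50.6% (table), between genotypes without TNF from 50.8% to 67.8% without scaling, and with TNF from 71.4% to 45.7%, 52.7% and 47.0%. No replicate block was fitted, since the labels number no replicates, and no model of genotype plus TNF over the 4 arrays, with its 1 residual degree of freedom, was run. Signals near background, such as the second Prg4 probe, have little precision.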
